A study of Rattus norvegicus with 16 samples.

Results

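The neuromuscular junction was compared between 2 muscles by a difference of differences. It is the junction minus fibre difference in extraocular muscle (EOM) minus the same difference in tibialis anterior (TA). EOM here means the rectus muscles that move the eye, and TA lies at the front of the hindlimb. All 16 arrays of the series enter, with 1 array from each of the rats numbered 15, 25, 27 and 29 in every group. Arrays with the same number were read as 1 rat, which the labels do not state in words. The groups are EOM_synapse and EOM_fiber for extraocular muscle, and TA_synapse and TA_fiber for tibialis anterior. Junctions were found by acetylcholinesterase staining and cut out by laser, about 1000 per muscle, with an equal amount of fibre away from junctions. The animals carried no stated allele or treatment, and their strain, sex and age are not given in the sources used here. Captured pieces were pooled for each muscle and rat, so fewer cells of a type and less RNA per cell cannot be told apart. A value is log2(intensity + 16) after quantile normalization, and it understates the change of a dim gene. A positive difference of differences means that the junction stood higher above its own fibre, or less far below it, in EOM than in TA, and a negative one means the reverse.

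The junction is served by a few nuclei under the nerve ending, which make the acetylcholine receptor and its anchoring proteins while other nuclei of the fibre make little. Agrin from the nerve acts through LRP4 and the kinase MuSK to cluster receptors, and ETS transcription factors downstream of ERK signalling drive synaptic genes. Limb fibres carry 1 compact ending each, whereas some extraocular fibres carry many small endings along their length and keep embryonic receptor and myosin genes in the adult.

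Of 10416 genes tested, 96 had a difference of differences with a limma adjusted p under 0.05, which is 0.922% (27 positive, 0.259%, and 69 negative, 0.662%). Without adjustment 1119 genes had p under 0.05, 443 positive and 676 negative. All 96 called genes had their sign in all 4 rats, against 18.6% of all tested genes, and the rats' values enter the call itself. The median over all tested genes was -0.02, and by rat it was -0.0408, -0.145, 0.0261 and -0.00388 in rats 15, 25, 27 and 29. The smallest called difference was 1.10 in size, and 57 of the 96 were over 2. Across all tested genes the differences of differences of 2 rats correlated with r from 0.0926 to 0.204, as a description over genes that share their arrays.

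The counts depended on single arrays. The positive count fell from 27 to between 11 and 17 without EOM_fiber 25 or 27, TA_fiber 15 or 27, EOM_synapse 15, 27 or 29, or TA_synapse 15 or 29. The negative count fell from 69 to 44 or 45 without EOM_fiber 25, EOM_synapse 25, 27 or 29, or TA_synapse 29. Leaving out a whole rat left 2 to 6 positive and 22 to 31 negative genes, and without the rat as a block there were 17 and 56. In each of these fits all 96 genes kept their sign. Leaving out a whole rat could not change it, because each gene had 1 sign in all 4 rats. Dropping the block leaves the estimate unchanged, so the kept signs of those fits carry no support. Of the 96, 46 passed the threshold in each of the 16 fits that left out 1 array, 9 positive (Fgf12, Ndnf, Oxct1, Prom2, Rcan2, Scn3b, Septin6, Tpbg and Tstd3) and 37 negative. Passing in each of the 4 fits without a rat were Prom2 and 13 negative genes, Cacna2d3, Calml4, Car3, Cblb, Ccnd2, Etv4, Fez2, Gmfg, Map3k7cl, Myom2, Nrros, Pstpip2 and Tspan13.

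**Figure D1:**
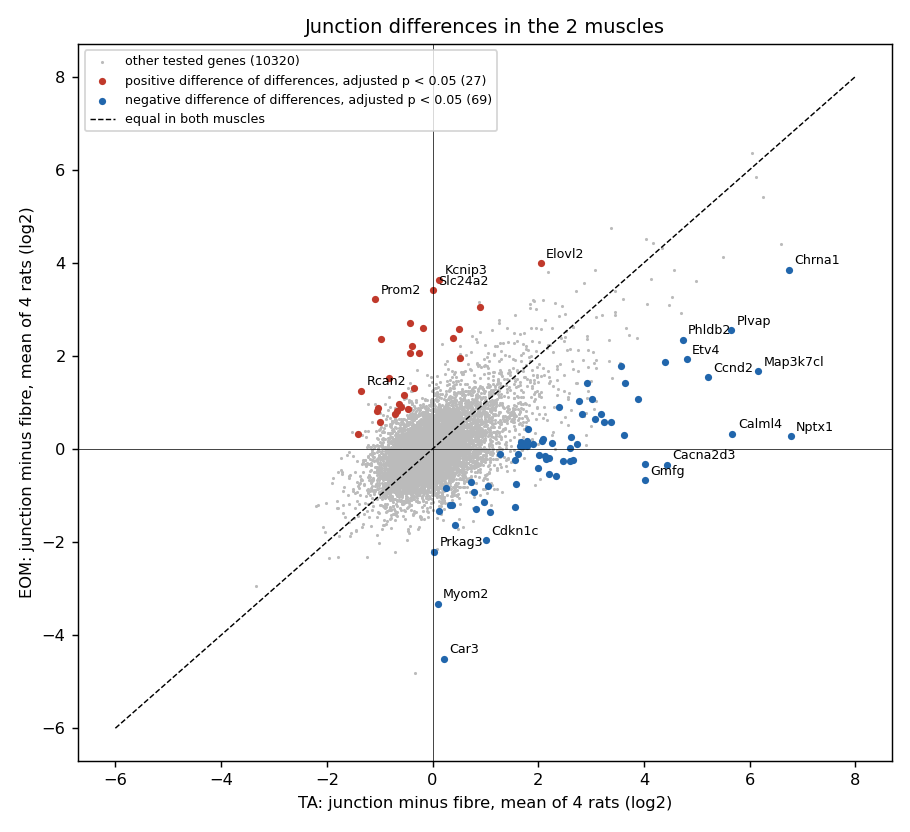
Junction minus fibre difference in EOM (vertical axis) against TA (horizontal axis), each a mean of 4 rats in log2 units, for the 10416 tested genes. The 27 genes with a positive difference of differences (red) lie above the dashed line of equal differences and the 69 negative ones (blue) below it, with Nptx1 and Chrna1 farthest right and Car3 lowest among the called genes.

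The called genes came in several shapes. In 53 of the 96 the mean junction difference had opposite signs in the 2 muscles (34% of all tested genes), in 43 the junction stood above fibre in both, and in none did it stand below fibre in both. In 26 genes the signs were opposite in every rat, 12 of them higher at the EOM junction and lower at the TA junction and 14 the reverse. For opposite signs in every rat, and for 1 direction in both muscles, the share of all tested genes was not computed. Those counts are therefore not read as a trait of the called genes. The muscles differed more at the junction than in fibre for 68 genes and more in fibre than at the junction for 28, against 51.2% at the junction among all tested genes. The TA junction was the highest of the 4 groups for 57 of the 69 negative genes, and for 38 of these its 4 arrays lay above all other arrays (20.3% and 1.31% of all tested genes). The EOM junction was the highest group for 21 of the 27 positive genes, 18 without overlap (26.8% and 3.22% of all tested genes). These shapes were read from the values that made the calls and carry no test of their own. Testing needed a level above the array median on 4 or more arrays, which 1 high group alone can supply. Klkb1 and Gad1 met it only through TA_synapse and Mmd2 only through EOM_synapse, so the filter favoured their shape.

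**Figure D2:**
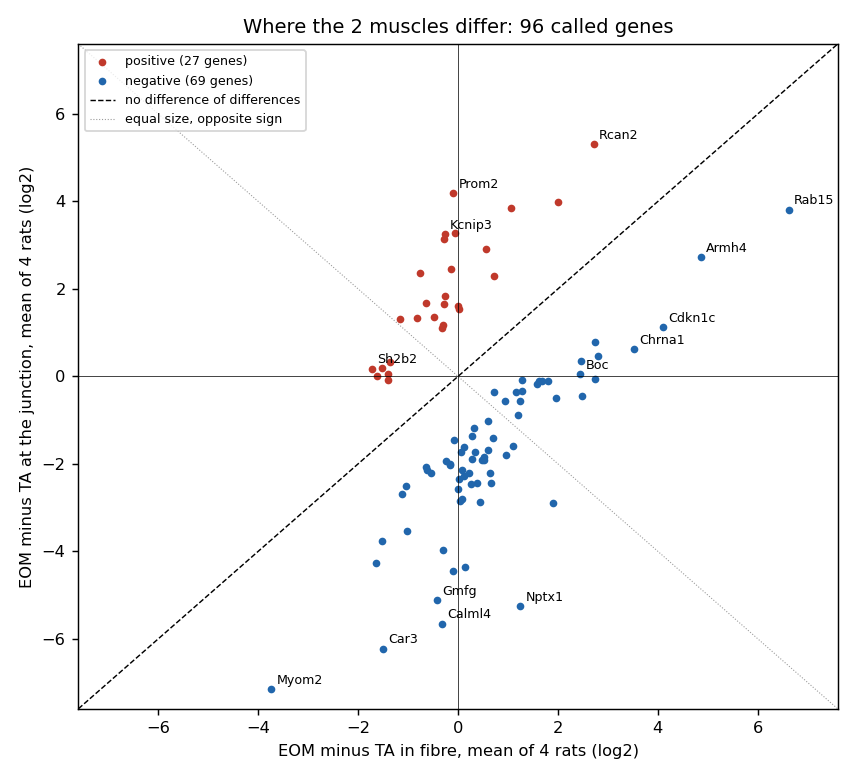
EOM minus TA at the junction (vertical axis) against EOM minus TA in fibre (horizontal axis) for the 96 called genes, means of 4 rats in log2 units. Calml4, Gmfg, Prom2 and Kcnip3 sit near 0 on the fibre axis and far from 0 on the junction axis, while Chrna1, Boc and Sh2b2 lie nearer 0 at the junction than in fibre.

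Prom2, which encodes the membrane glycoprotein prominin 2, had the largest positive difference. Its level was 7.14, 6.78, 5.90 and 6.31 in EOM_fiber (rats 15, 25, 27 and 29, the order kept below), 10.05, 9.96, 9.59 and 9.38 in EOM_synapse, 6.83, 6.55, 6.72 and 6.43 in TA_fiber, and 6.12, 5.68, 5.40 and 5.01 in TA_synapse. All 4 EOM junction arrays were above every other array, and the TA junction lay below TA fibre in each rat. The difference of differences was 4.29 ± 0.29 (3.61, 4.06, 5.02 and 4.48 by rat, n = 4 rats), adjusted p = 8.58e-06, the smallest of all genes. Here and below, ± gives the standard error (SE) from the limma fit to all arrays, not the SE of the 4 rats' values.

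Kcnip3, which encodes a calcium-binding protein that associates with voltage-gated potassium channels, was at 5.11, 4.56, 4.50 and 5.99 in EOM_fiber and 8.92, 9.04, 8.73 and 8.03 in EOM_synapse. In TA it was at 5.32, 4.31, 5.56 and 6.05 in fibre and 5.36, 5.83, 6.11 and 4.44 at the junction. The EOM junction stood apart from the other 3 groups, which overlapped. The difference was 3.51 ± 0.65 (adjusted p = 0.0196), and the call was lost without EOM_fiber 25, EOM_synapse 15, 25 or 27, or TA_synapse 15 (largest adjusted p 0.0583).

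Prom2 and Kcnip3 are the 2 largest positive differences and lie next to each other on rat chromosome 3 on the same strand, 4.9 kb apart in the gene table of assembly GRCr8 with no gene between. Their promoter sequences are shown for that reason, as the 150 bases before the start site from RefSeq (build GRCr8, minus strand, 5′ to 3′), with the E-box CAGCTG, a site for myogenic factors that reads the same on both strands, in capitals. The windows are chr3:135215078-135215227 for Prom2 and chr3:135195411-135195560 for Kcnip3. Kcnip3 holds 1 match that begins 61 bases before the start site and Prom2 none in these 150 bases.
Prom2: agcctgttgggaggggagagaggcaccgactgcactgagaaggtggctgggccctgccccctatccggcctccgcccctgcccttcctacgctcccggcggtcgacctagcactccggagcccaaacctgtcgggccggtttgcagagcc
Kcnip3: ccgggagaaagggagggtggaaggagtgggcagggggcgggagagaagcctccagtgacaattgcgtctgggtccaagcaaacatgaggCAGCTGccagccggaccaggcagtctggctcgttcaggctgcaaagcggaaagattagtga

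Slc24a2, a potassium-dependent sodium-calcium exchanger, was at 6.42, 5.95, 4.20 and 4.18 in EOM_fiber, 9.01, 8.60, 8.27 and 8.53 in EOM_synapse, 4.53, 6.34, 5.43 and 5.57 in TA_fiber and 5.88, 6.0, 4.39 and 5.62 in TA_synapse. Only its EOM junction arrays were above 8, and the difference was 3.41 ± 0.61 (adjusted p = 0.0176, lost without EOM_synapse 27, adjusted p = 0.0557). Fgf12, an intracellular factor that binds voltage-gated sodium channels, was at 4.20, 5.66, 4.21 and 6.52 in EOM_fiber against 7.53, 8.28, 7.87 and 7.71 in EOM_synapse. Its TA arrays ran from 4.88 to 6.48 in both regions, and the difference was 3.11 ± 0.52 (adjusted p = 0.0105). Scn3b, a beta subunit of those channels, was at 7.0, 6.55, 6.12 and 6.70 in EOM_fiber, 9.43, 8.53, 9.71 and 9.02 in EOM_synapse, 7.25, 6.60, 6.91 and 6.65 in TA_fiber and 7.29, 6.84, 8.02 and 7.23 in TA_synapse, a difference of 2.09 ± 0.37 (adjusted p = 0.0137).

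Rcan2, a regulator of the phosphatase calcineurin, moved in opposite directions in every rat. It was at 12.48, 12.59, 13.18 and 12.01 in EOM_fiber and 13.95, 13.78, 13.97 and 13.55 in EOM_synapse, but at 9.62, 9.06, 10.39 and 10.32 in TA_fiber and 9.03, 8.02, 8.73 and 8.21 in TA_synapse. All EOM arrays were above all TA arrays, and the junction widened that gap (2.60 ± 0.39, adjusted p = 0.00574). Of the 23 measured genes of the calcium sensor and calcineurin list, Rcan2 was the only positive call and Calml4 and Camk2d were the negative ones. The list median was -0.15. Over all tested genes 0.922% were called and 52.1% lay below 0, the background for this and every later list. The call of Camk2d (-1.66 ± 0.33) was kept only without EOM_fiber 15 or 25, TA_fiber 25 or TA_synapse 29. The calcineurin subunits Ppp3ca, Ppp3cb, Ppp3cc and Ppp3r1 had differences of -0.28, -0.26, -0.00 and -0.53, and Rcan1 one of -0.10, with no call.

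Tpbg, a surface glycoprotein, was at 6.18, 5.52, 5.54 and 5.57 in EOM_fiber and 8.57, 8.74, 7.85 and 8.04 in EOM_synapse, against 4.10 to 5.35 on the 8 TA arrays (2.78 ± 0.47, adjusted p = 0.0116). Ndnf, a secreted neurotrophic factor, was at 5.94, 4.59, 4.20 and 4.53 in EOM_fiber, 6.96, 6.92, 7.09 and 6.52 in EOM_synapse and 5.19 to 6.23 in TA (2.47 ± 0.36, adjusted p = 0.00478). Fst, which encodes the activin and myostatin antagonist follistatin, was at 8.11, 7.54, 8.99 and 9.17 in EOM_fiber, 10.56, 10.83, 11.32 and 10.65 in EOM_synapse, 5.90, 6.61, 6.87 and 6.46 in TA_fiber and 5.84, 6.96, 7.63 and 6.98 in TA_synapse. Its difference of 2.00 ± 0.40 (adjusted p = 0.0326) passed the threshold in 6 of the 16 fits without 1 array, those without EOM_fiber 15, 25 or 29, EOM_synapse 29, or TA_synapse 25 or 27. Ptn, the heparin-binding growth factor pleiotrophin, differed by 2.15 ± 0.45 (adjusted p = 0.0371) and was likewise called in 6 of the 16, those without EOM_fiber 15, 27 or 29, TA_fiber 25, or TA_synapse 15 or 25.

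Septin6, a cytoskeletal GTPase, differed by 3.34 ± 0.57 (adjusted p = 0.0117), while its other, dimmer probe set gave 1.06 and 1 sign in 3 of 4 rats. Tstd3, which has a rhodanese-like domain, differed by 2.35 ± 0.36 (adjusted p = 0.00698). Lix1 (2.60 ± 0.49) lost its call without EOM_fiber 25, 27 or 29, TA_fiber 27, EOM_synapse 27, or TA_synapse 15 or 25. Mmd2 (2.32 ± 0.48) kept it only without EOM_fiber 15, TA_fiber 29, or TA_synapse 27 or 29. Mmd2 lay above the array median only in EOM_synapse, the group through which it entered the test. Elovl2, which lengthens polyunsaturated fatty acids, was higher at the junction in both muscles, by 3.99 in EOM and 2.05 in TA, and its difference of 1.94 ± 0.39 held only without EOM_fiber 15 or 27 or TA_fiber 27. A further 3 genes, chosen after their values were seen, were higher at the EOM junction and lower at the TA junction in each rat: Oxct1, which starts the use of ketone bodies (1.47 ± 0.25, adjusted p = 0.0117), the acyl-CoA synthetase Acsl3 (1.60 ± 0.31, kept only without EOM_fiber 15, 27 or 29, TA_fiber 15 or 29, EOM_synapse 25, or TA_synapse 15 or 25) and the mitochondrial acetyl-CoA synthetase Acss1 (1.57 ± 0.33, kept only without TA_synapse 25 or 27). None of the 19 measured genes of the fatty acid list, which does not hold these 3, was called, and its median was 0.19.

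**Figure D3:**
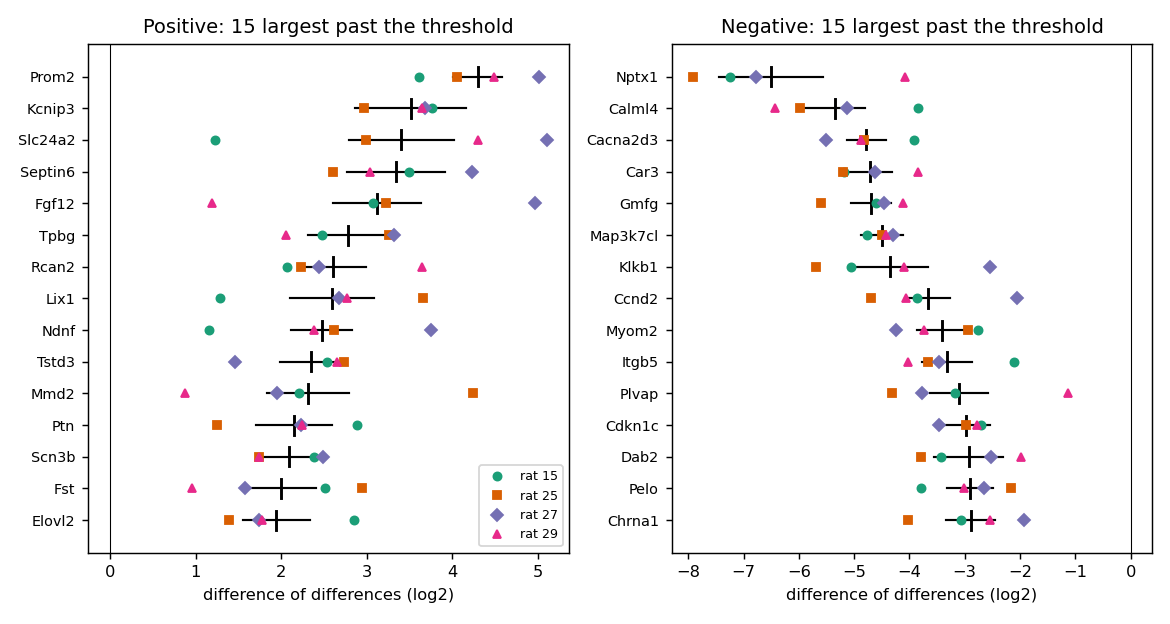
Difference of differences in log2 units for the 15 largest positive (left) and 15 largest negative (right) called genes, 1 symbol per rat, with the mean as a vertical bar and its SE from limma as a horizontal line. All symbols lie on 1 side of 0, with Kcnip3 and Map3k7cl close together among rats and Nptx1, Slc24a2 and Fgf12 widely spread.

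Among the negative genes, a set was bright on the 4 TA junction arrays and low elsewhere. Nptx1, the secreted neuronal pentraxin 1 that gathers glutamate receptors at central synapses, was at 5.66, 5.28, 5.22 and 6.40 in EOM_fiber, 6.25, 6.03, 5.49 and 5.88 in EOM_synapse, 4.14, 4.29, 4.32 and 4.83 in TA_fiber and 11.97, 12.95, 11.36 and 8.39 in TA_synapse. Rat 29 was the lowest at the TA junction and still above every array of the other groups. The difference was -6.50 ± 0.94 (SE, adjusted p = 0.00478), the largest of all genes in size.

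Calml4, a calmodulin-like protein gene, was at 11.35, 10.42, 11.23 and 11.68 in TA_synapse and between 4.26 and 6.08 on the other 12 arrays (-5.34 ± 0.55, adjusted p = 0.00027). Cacna2d3, an auxiliary subunit of voltage-gated calcium channels, was at 7.40, 7.85, 6.93 and 7.21 in EOM_fiber, 7.51, 7.17, 6.70 and 6.65 in EOM_synapse, 6.06, 5.57, 4.39 and 5.79 in TA_fiber and 10.10, 9.72, 9.66 and 10.09 in TA_synapse. It was thus higher in EOM than in TA fibre and lower in EOM than in TA at the junction, with a difference of -4.78 ± 0.36 (adjusted p = 1.72e-05). Gmfg, which prunes branched actin, was at 7.27, 7.12, 6.83 and 6.94 in EOM_fiber, 6.02, 6.27, 6.39 and 6.76 in EOM_synapse, 7.43, 7.61, 7.29 and 7.54 in TA_fiber and 10.78, 12.35, 11.32 and 11.47 in TA_synapse (-4.69 ± 0.36, adjusted p = 1.72e-05). The EOM junction was below its fibre and the TA junction above its own in each rat.

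Map3k7cl, named for its likeness to a kinase of the TGF-beta pathway, was higher at the junction in both muscles. It was at 6.46, 6.32, 6.55 and 7.26 in EOM_fiber, 7.96, 8.58, 8.04 and 8.69 in EOM_synapse, 6.57, 5.50, 7.01 and 6.96 in TA_fiber and 12.84, 12.24, 12.79 and 12.80 in TA_synapse. The 4 rats gave -4.77, -4.49, -4.30 and -4.42, the narrowest spread among the 15 largest negative differences (-4.49 ± 0.39, adjusted p = 4.11e-05). Ccnd2, the cell cycle protein cyclin D2, had the same shape, with 5.41 to 6.47 in EOM_fiber, 6.96 to 7.62 in EOM_synapse, 5.54 to 6.75 in TA_fiber and 10.92 to 11.62 in TA_synapse (-3.67 ± 0.41, adjusted p = 0.000486). Klkb1, plasma prekallikrein, was between 4.11 and 5.19 on 12 arrays, near the value of 4 that an intensity of 0 gives, and at 9.66, 9.98, 6.74 and 7.88 in TA_synapse (-4.35 ± 0.69, adjusted p = 0.00743). On those 12 arrays it lay at or below the array median, so it entered the test only through TA_synapse.

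Itgb5, the integrin beta 5 subunit, was at 6.28 to 7.55 in EOM_fiber, 7.01 to 7.97 in EOM_synapse, 6.03 to 7.41 in TA_fiber and 9.52 to 10.50 in TA_synapse (-3.32 ± 0.45, adjusted p = 0.00298). Phldb2 encodes LL5 beta, a cortical protein that sits under the postsynaptic membrane and captures microtubules. It was at 6.67, 6.37, 7.49 and 7.27 in EOM_fiber, 9.26, 9.44, 9.13 and 9.37 in EOM_synapse, 6.24, 5.62, 7.08 and 6.94 in TA_fiber and 11.26, 11.12, 11.44 and 11.01 in TA_synapse, so that the junction was higher in both muscles and more so in TA (-2.38 ± 0.37, adjusted p = 0.00722). Its relative Phldb1 differed by -2.68 ± 0.50 (adjusted p = 0.0209, lost without EOM_fiber 25 or 27, or TA_synapse 15 or 29, largest adjusted p 0.0579). Fez2 (-2.63 ± 0.33), the tetraspanin Tspan13 (-2.41 ± 0.27), the ubiquitin ligase Cblb (-2.28 ± 0.26), the serine protease St14 (-2.36 ± 0.35) and Pvr, a nectin-like adhesion molecule (-2.58 ± 0.41), were also highest at the TA junction without overlap and were called in all 16 fits without 1 array.

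**Figure D4:**
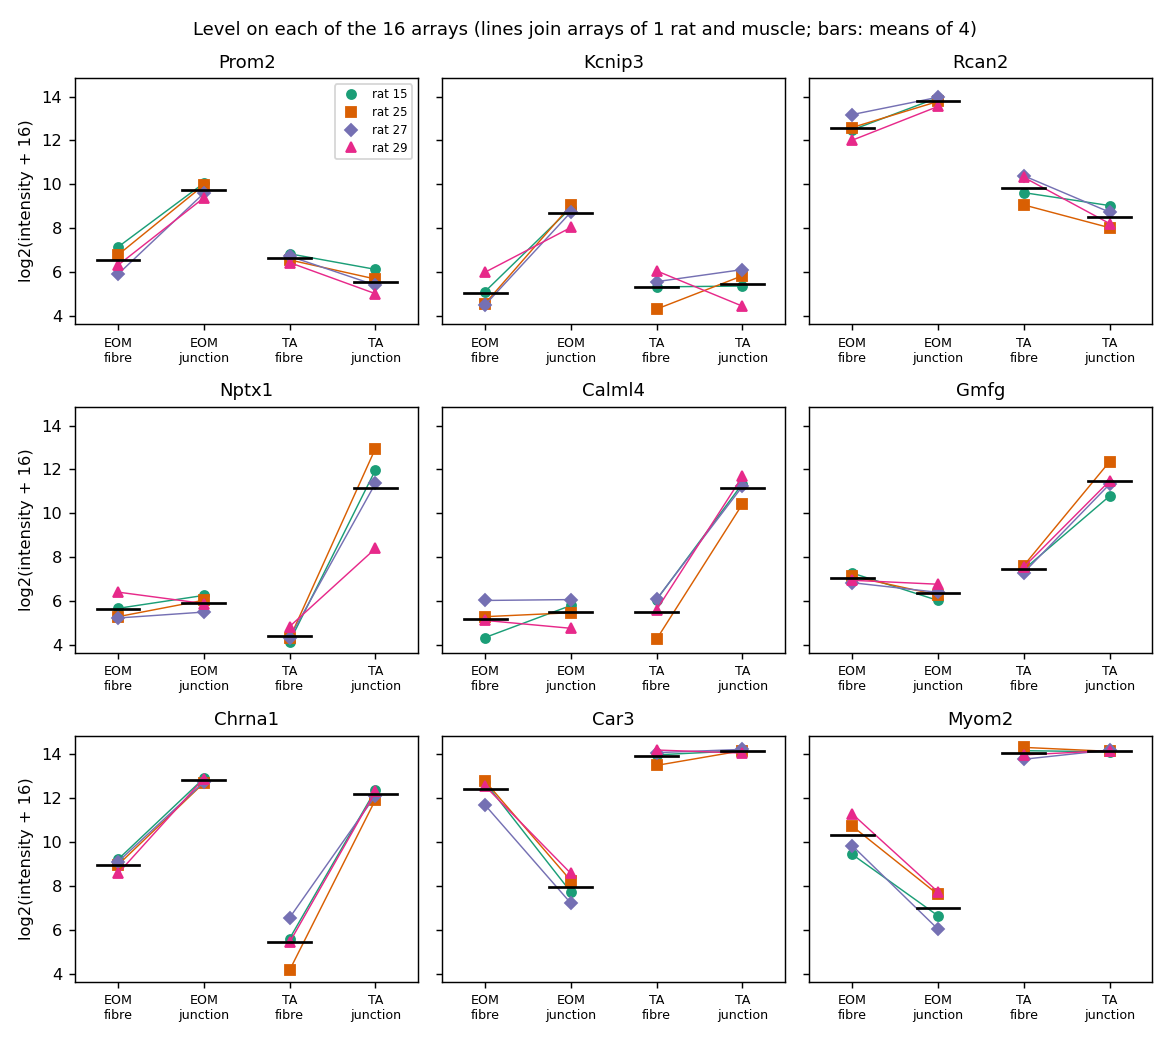
Level of 9 genes on each of the 16 arrays as log2(intensity + 16) after quantile normalization, with lines joining the fibre and junction arrays of 1 rat and muscle and black bars at the mean of 4. Prom2 and Kcnip3 are high only at the EOM junction, Nptx1, Calml4 and Gmfg only at the TA junction, Chrna1 is higher at both junctions than in fibre, and Car3 and Myom2 are lowest at the EOM junction.

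The receptor genes differed among themselves. Chrna1, the alpha subunit that binds acetylcholine, was at 9.21, 8.96, 9.10 and 8.57 in EOM_fiber, 12.91, 12.70, 12.73 and 12.90 in EOM_synapse, 5.60, 4.16, 6.55 and 5.43 in TA_fiber and 12.37, 11.93, 12.12 and 12.31 in TA_synapse. Fibre differed far more between the muscles than the junction did, by 3.52 against 0.63, and the difference of differences was -2.89 ± 0.45 (SE, adjusted p = 0.00698). On linear intensity its sign was the opposite, with the EOM junction exceeding its fibre by 2069 units more than the TA junction exceeded its own. Chrne, the adult subunit, was at 5.30, 4.41, 6.02 and 4.25 in EOM_fiber, 11.28, 11.23, 11.38 and 11.55 in EOM_synapse, 4.37, 4.45, 4.44 and 4.29 in TA_fiber and 10.67, 10.41, 9.92 and 10.67 in TA_synapse. Its difference of 0.33 ± 0.45 (95% interval -0.65 to 1.31, adjusted p = 0.858) was not past the threshold and took both signs among rats.

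Chrnd, the delta subunit, had -1.07 ± 0.42 (95% interval -1.97 to -0.16, not adjusted for the number of genes, adjusted p = 0.339), Chrnb1, the beta subunit, -0.45 ± 0.26 (adjusted p = 0.586) and Chrng, the embryonic subunit, -0.88 (adjusted p = 0.558, negative in 3 of 4 rats). The promoters of the 5 subunits are printed to show what the subunits do and do not share next to these values. They are the 150 bases before the start site from RefSeq (build GRCr8), with E-box matches (CAGCTG) and N-box matches (CCGGAA or, on the other strand, TTCCGG, a site of ETS factors) in capitals.
Chrna1, chr3:78877354-78877503, minus strand: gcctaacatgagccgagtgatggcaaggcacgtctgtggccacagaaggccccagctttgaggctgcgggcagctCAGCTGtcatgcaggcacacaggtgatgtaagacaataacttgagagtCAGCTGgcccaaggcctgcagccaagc
Chrnb1, chr10:55015108-55015257, minus strand: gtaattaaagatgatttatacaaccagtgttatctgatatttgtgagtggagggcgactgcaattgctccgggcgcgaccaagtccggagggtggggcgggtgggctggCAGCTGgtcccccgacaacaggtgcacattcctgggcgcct
Chrnd, chr9:95310166-95310315, plus strand: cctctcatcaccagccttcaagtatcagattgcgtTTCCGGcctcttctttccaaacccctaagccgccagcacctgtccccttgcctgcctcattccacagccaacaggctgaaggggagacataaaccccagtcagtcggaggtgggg
Chrne, chr10:55834155-55834304, minus strand: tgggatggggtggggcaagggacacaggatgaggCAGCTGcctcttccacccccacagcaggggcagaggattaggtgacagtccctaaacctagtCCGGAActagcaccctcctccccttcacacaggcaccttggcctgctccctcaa
Chrng, chr9:95325834-95325983, plus strand: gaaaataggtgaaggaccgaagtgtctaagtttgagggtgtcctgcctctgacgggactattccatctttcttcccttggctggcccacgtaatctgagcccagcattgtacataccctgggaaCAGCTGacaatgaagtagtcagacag

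Chrna1 held 2 E-boxes, beginning 75 and 27 bases before the start site, and no N-box, while Chrne held an N-box at 54 and an E-box at 116 bases and Chrnd an N-box at 115 bases. Over 250 bases before the start site, an N-box was present in 12.6% and an E-box in 12% of the 33469 windows of the table. Of the 96 called genes 70 had a window, with 5 genes holding an N-box and 11 an E-box (8.75% and 13.8% of their 80 windows). No N-box match overlapped an E-box match in the printed stretches, and a match describes letters and not a bound site.

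Of the 19 measured genes of the receptor and postsynaptic list, Chrna1 and Lrp4 were called, both negative. The list median was -0.82 against -0.02 over all tested genes. Of the 19, 15 lay below 0, against 52.1% of all tested genes. Taken rat by rat the list median was nearer 0, at -0.5, -0.284, -0.378 and -0.546 in rats 15, 25, 27 and 29. Lrp4, the agrin receptor, was at 7.58, 8.94, 7.88 and 7.88 in EOM_fiber, 9.07, 9.33, 9.17 and 8.80 in EOM_synapse, 6.37, 7.08, 6.11 and 6.43 in TA_fiber and 9.29, 9.91, 8.57 and 9.30 in TA_synapse. The junctions of the 2 muscles overlapped and the fibre groups did not, and the difference of -1.75 ± 0.31 (adjusted p = 0.0175) was lost without EOM_synapse 29, or TA_synapse 15 or 29 (largest adjusted p 0.0532). The scaffold genes Rapsn (-0.10), Dok7 (-0.19), Utrn (-0.16) and Dtna (0.27), the collagen tail gene Colq (-0.82) and the adhesion gene Ncam1 (-1.38 ± 0.37, adjusted p = 0.113) were not called. Musk and Ache were not among the tested genes.

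In the ERK list 1 of 17 genes was called. Etv4, an ETS factor of the same subfamily as Etv5, was at 4.17, 4.43, 4.63 and 4.53 in EOM_fiber, 6.37, 5.86, 6.53 and 6.69 in EOM_synapse, 5.09, 4.15, 4.12 and 4.10 in TA_fiber and 9.48, 9.18, 9.06 and 8.98 in TA_synapse. It was higher at the junction in all rats of both muscles, by 1.92 in EOM and 4.81 in TA on average, and differed by -2.88 ± 0.35 (adjusted p = 0.0011). Etv5 itself was close at the 2 junctions (10.81, 10.79, 10.60 and 10.62 in EOM against 11.53, 11.04, 10.17 and 10.49 in TA) and had -0.84 ± 0.51 (adjusted p = 0.616, negative in 4 of 4 rats). Dusp6, the ERK phosphatase, had -1.38 ± 0.36 (adjusted p = 0.103, negative in 4 of 4 rats), and Etv1 -1.25 (adjusted p = 0.0911, 4 of 4). The list median was -0.26.

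In another shape, the EOM junction was low and the 2 TA groups overlapped. Car3, the abundant muscle carbonic anhydrase, was at 12.72, 12.78, 11.69 and 12.56 in EOM_fiber, 7.72, 8.24, 7.21 and 8.57 in EOM_synapse, 13.98, 13.50, 14.08 and 14.20 in TA_fiber and 14.17, 14.17, 14.23 and 14.06 in TA_synapse (-4.72 ± 0.39, adjusted p = 3.54e-05). Myom2, the M-protein of the sarcomere's M-band, was at 9.44, 10.73, 9.84 and 11.29 in EOM_fiber, 6.64, 7.61, 6.03 and 7.73 in EOM_synapse, 14.17, 14.32, 13.78 and 13.98 in TA_fiber and 14.12, 14.14, 14.20 and 14.17 in TA_synapse (-3.42 ± 0.45, adjusted p = 0.00207). For both genes the 2 TA groups overlapped and the EOM junction lay below all other arrays. A level above 14 was reached by 38 probe sets an array, 0.122% of them, and the highest level was 15.59, so these TA values are near the top of the scale, where the part played by saturation was not tested. On linear intensity as deposited the sign of Myom2 was the opposite.

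Prkag3, a muscle subunit of AMP-activated kinase, was at 8.46, 9.74, 8.55 and 8.75 in EOM_fiber, 6.84, 6.82, 6.23 and 6.77 in EOM_synapse, 10.22, 10.16, 10.24 and 10.96 in TA_fiber and 10.37, 10.07, 10.30 and 10.97 in TA_synapse. The EOM junction lay below its fibre in each rat and the 2 TA groups overlapped (-2.25 ± 0.39, adjusted p = 0.0133). Of 16 measured fast fibre genes, Myom2 and Mybpc2 were called, both negative. The list median was -0.53, with 13 of 16 below 0 (52.1% of all tested genes). Mybpc2, the fast myosin-binding protein C, differed by -1.45 ± 0.28 (adjusted p = 0.0285) and passed in 5 of the 16 fits without 1 array, those without EOM_fiber 15 or 29, TA_fiber 27, EOM_synapse 29 or TA_synapse 27. The fast myosin Myh2 had -1.52 ± 0.35 (adjusted p = 0.0691), the calsequestrin gene Casq1 -1.33 (adjusted p = 0.0544) and Actn3 -1.18 (adjusted p = 0.0819), each negative in 4 of 4 rats, while Myh4 had -0.21 (adjusted p = 0.818) and Myh1 0.50 (adjusted p = 0.634).

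In the glycogen and glycolysis list Gpd1, the cytosolic glycerol-3-phosphate dehydrogenase, was the 1 call of 19 (-1.53 ± 0.28, adjusted p = 0.0185), lost without EOM_synapse 25, or TA_synapse 15 or 29 (largest adjusted p 0.0521). Another, dimmer probe set of Gpd1 gave 0.07. None of 32 oxidative, 14 slow fibre, 22 excitation-contraction coupling or 8 developmental sarcomere genes was called, with medians of 0.245, -0.25, -0.49 and -0.53. Of the 32 oxidative genes 4 lay below 0, against 52.1% of all tested genes. The oxidative median was above 0 in each rat, at 0.214, 0.202, 0.52 and 0.23 in rats 15, 25, 27 and 29. The farthest from 0 among the genes of these lists were the embryonic myosin Myh3 (-4.48 ± 1.08, adjusted p = 0.0819), the calcium pump regulator Sln (-2.72 ± 0.75, adjusted p = 0.127) and the perinatal myosin Myh8 (-2.01 ± 0.46, adjusted p = 0.0624). The extraocular myosin Myh13 had 0.40 ± 0.46 (-0.60 at the EOM and -1.0 at the TA junction against fibre, adjusted p = 0.821). None of 7 measured limb position genes was called, and Hoxa9, which patterns limbs, had -0.07 ± 0.36 (adjusted p = 0.974).

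Some genes were highest in EOM fibre. Cdkn1c, the cell cycle inhibitor p57, was at 11.79, 11.75, 12.08 and 12.49 in EOM_fiber, 9.91, 9.87, 9.87 and 10.60 in EOM_synapse, 7.58, 6.80, 8.84 and 8.48 in TA_fiber and 8.40, 7.88, 10.10 and 9.39 in TA_synapse. It was lower at the EOM junction and higher at the TA junction in each rat (-2.98 ± 0.45, adjusted p = 0.00574). Egln3, an oxygen-sensing prolyl hydroxylase, ran the same way, from 11.29, 11.01, 10.68 and 10.97 to 9.50, 10.00, 9.53 and 9.46 in EOM and from 8.91, 9.65, 9.29 and 8.28 to 10.40, 10.69, 9.74 and 9.61 in TA (-2.44 ± 0.34, adjusted p = 0.00347). Rab15, a vesicle GTPase, differed by -2.80 ± 0.59 (adjusted p = 0.041), a call that held only without TA_fiber 25 or TA_synapse 25, and its other 2 probe sets gave 0.42 and -0.24.

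Markers of other cell types lay beside these results. The fibroblast and matrix list had a median of -0.77 over 23 measured genes. Of these 18 lay below 0 (52.1% of all tested genes), and there was 1 call, Col1a1. That collagen gene was at 7.61, 6.79, 9.86 and 9.29 in EOM_fiber, 7.48, 7.18, 9.83 and 9.29 in EOM_synapse, 6.34, 5.79, 8.39 and 7.92 in TA_fiber and 7.96, 7.59, 10.07 and 9.47 in TA_synapse. Rats 27 and 29 were above rats 15 and 25 in all 4 groups, and the difference was -1.75, -1.41, -1.70 and -1.54 by rat (mean -1.60 ± 0.24, adjusted p = 0.00528). A second, dimmer probe set of Col1a1 gave -0.02, with 1 sign in 3 of 4 rats. Summed over the list on the linear scale, intensity ran from 13700 to 34300 in EOM_fiber, 25800 to 48400 in EOM_synapse, 5180 to 11800 in TA_fiber and 17000 to 31400 in TA_synapse.

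Plvap, a protein of endothelial fenestrae, was at 5.39, 6.69, 6.78 and 4.75 in EOM_fiber, 8.26, 8.34, 8.17 and 9.03 in EOM_synapse, 4.96, 4.99, 5.96 and 5.04 in TA_fiber and 11.02, 10.96, 11.14 and 10.44 in TA_synapse (-3.10 ± 0.53, adjusted p = 0.0117). It was the 1 call among 15 measured endothelial genes, whose median was -0.18, with 12 of them below 0 (52.1% of all tested genes). The endothelial markers Pecam1 (-0.18), Tie1 (-0.09), Kdr (0.23), Emcn (-0.16), Cldn5 (-1.30) and Sox17 (0.88) were not called. The endothelial sum was 4470 to 5850 in EOM_fiber, 2440 to 3550 in EOM_synapse, 2950 to 3640 in TA_fiber and 3290 to 4590 in TA_synapse. The macrophage and immune list had 0 calls of 14 and a median of -0.58, with 13 of the 14 below 0 and Csf1r at -1.61 (adjusted p = 0.176). Its sums were 2430 to 3710, 1390 to 2300, 1180 to 1950 and 1470 to 1960 in the same order. The difference of differences of the log2 endothelial sum was -1.23, -1.16, -1.04 and -0.48 by rat, and without Plvap it was -0.37, -0.10, -0.19 and 0.04. That of the fibroblast sum was -0.50, -0.87, -1.13 and -0.80, and without Col1a1 -0.49, -0.87, -1.11 and -0.79. The macrophage sum gave -1.28, -1.15, -0.79 and -0.41, but the median over its genes was 0.01 in rat 27, as that of the endothelial list was 0.04. The smooth muscle and neuron sums were also negative in 4 of 4 rats (-0.78 to -0.19 and -0.80 to -0.03), and 4 rats cannot give a 2-sided exact p under 0.125.

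The called genes Nrros (-2.72 ± 0.29), Abi3 (-2.85 ± 0.48), Pstpip2 (-1.85 ± 0.24) and Gimap6 (-1.70 ± 0.27), all known from blood and immune cells and chosen after their values were seen, were negative beside the macrophage list, and the part of those cells in them was not tested. The Schwann cell list had 0 calls of 10, a median of 0.18 and sums of 1880 to 2900 in EOM_fiber, 8160 to 15400 in EOM_synapse, 601 to 895 in TA_fiber and 3530 to 5820 in TA_synapse. The difference of differences of its log2 sum was -0.9, -0.8, -0.52 and 0.18 by rat, while 4 of its 10 genes lay below 0. Farthest from 0 was Pmp22 at -0.94 (adjusted p = 0.255, negative in 4 of 4 rats), with S100b at 0.40 (adjusted p = 0.816) and Mbp at -0.26 (adjusted p = 0.904). The neuron and axon list had 0 calls of 7 and a median of -0.65, with 6 of the 7 below 0, and its sums ran from 758 to 1330 over all 16 arrays. Smooth muscle and pericyte (14 measured, median -0.38), satellite cell (7, -0.28), adipocyte (5, -0.06) and erythrocyte genes (3, 0.33) had no call. In the same order, 10, 7, 4 and 1 of their genes lay below 0. Guca1a was the only measured gene of the retina list and was not called (-1.32, adjusted p = 0.385).

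**Figure D5:**
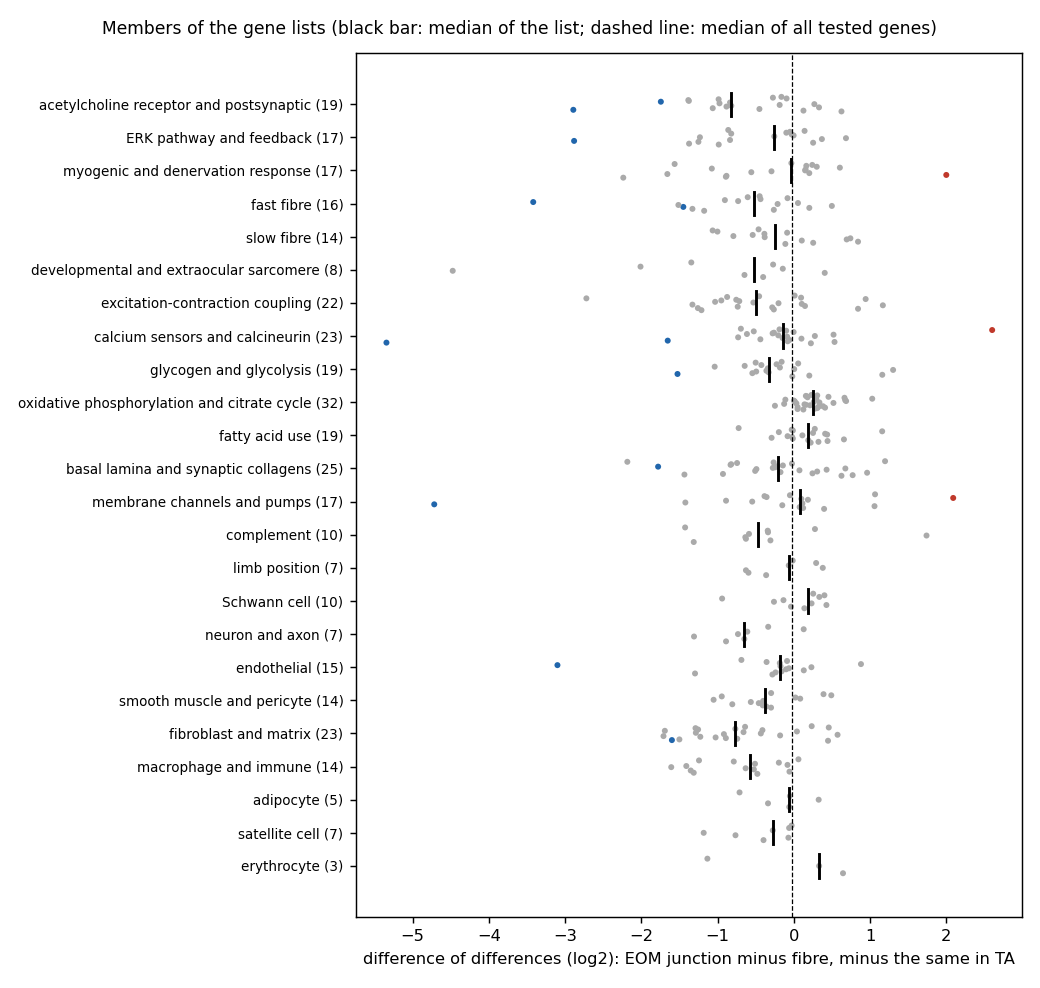
Difference of differences in log2 units for each measured member of the gene lists with at least 3 measured members (number in brackets), grey where not called, red where called positive and blue where called negative. Black bars mark list medians, from -0.82 for the receptor and postsynaptic list to 0.33 for erythrocyte genes, and the dashed line marks the median of all tested genes, -0.02.

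Among the remaining lists, the basal lamina list had 1 call of 25, Lama2, the laminin alpha 2 chain (-1.78 ± 0.37, adjusted p = 0.0407, held only without EOM_fiber 29, TA_fiber 29 or TA_synapse 27). Its junction arrays were at 10.66, 11.26, 11.74 and 11.72 in EOM and 11.45, 11.28, 11.46 and 11.60 in TA, and its fibre arrays at 9.30, 9.36, 10.05 and 9.54 against 7.91, 6.85, 8.22 and 8.56. Postn, the matricellular protein periostin, had -2.19 ± 0.97 (adjusted p = 0.426). The list of membrane channels and pumps, which also holds the carbonic anhydrase Car3, had 2 calls of 17 and a median of 0.08. The calls were Scn3b and Car3, and Car3 is itself neither a channel nor a pump. The myogenic and denervation list had 1 call of 17, Fst, and a median of -0.03. None of 10 complement genes was called, and Cd55, a membrane regulator of complement, had 1.74 ± 0.47 (adjusted p = 0.113, positive in 4 of 4 rats).

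The array controls showed no common direction. The 3' to 5' log2 ratio of the Gapdh control had a difference of differences of 0.135, -0.038, -1.2 and 0.332 in rats 15, 25, 27 and 29, and that of the actin control 1.58, -1.52, -0.381 and 1.23. Median intensity ran from 33.43 to 57.04 over the arrays before normalization. Of the 96 called genes, 43 lay above their array's median on all 16 arrays and 20 lay at or below it on all 4 arrays of at least 1 group. Of 29 other probe sets of called genes that passed the filter, 26 had the same sign, and the median of their value over that of the probe set used was 0.52. Other probe sets gave 1.05 for Fst, 1.65 for Rcan2, -1.46 for Etv4, -1.46 for Phldb2 and -0.94 for Camk2d, each over 1.5 times smaller than the value above and with 1 sign in 4 of 4 rats.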

How the data were processed

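Per the labels' protocols, sections of 10 µm were stained for acetylcholinesterase, junctions and fibre were laser captured, and the amplified RNA was hybridised at 600 ng an array. The authors deposited linear intensity per probe set of an Affymetrix rat array, scaled to a common 2% trimmed mean of 150.06 to 150.08. How probes were summarised is not stated in the labels. No transcript count stands behind an intensity, so the number of arrays limits the precision, and p-values measure the spread between these samples.

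Because array medians spread over 0.563 on the log2 scale (limit 0.5), log2(intensity + 16) was quantile normalized, without the 57 control probe sets. Names came from the platform annotation with GRCr8 symbols: 20826 probe sets had 1 gene, 436 several, and 9780 no entry. Testing needed a level over the array median on 4 or more arrays, and 1 probe set, that of highest mean, stood for each gene. The contrast was fitted with limma 3.58.1 (R 4.3.3) on all 16 arrays with the rat as a fixed block (9 residual, 4.58 prior degrees of freedom) and Benjamini-Hochberg adjustment. Same-numbered arrays were read as 1 animal, since 4 rats and 4 numbers are given. After group means were removed, 24 same-rat pairs had r from -0.0666 to 0.245, mean 0.112. Pairs of different rats had a mean r of -0.11, which removing group means itself pushes below 0. Of the 16 arrays, 14 were closest to an array of their own rat.

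The members and lists were chosen with earlier results of these data known. Named genes are the 15 largest in each direction with 1 sign in 4 rats, up to 4 called members of each list and a fixed set. Called genes outside this rule (Phldb1, Phldb2, Prkag3, Egln3, Rab15 and others) were chosen after their values were seen. On simulated data of 10416 genes, 0, 10, 64 and 100% of log2 changes of 0.5, 1, 2 and 4 were recovered and 3.33% of calls were false. The simulated noise was independent between genes and between arrays, with no rat effect. These shares hold for that setting and are not error rates of the calls above. Alternatives covered the block, normalization, filter, pseudocount, probe set, prior, effect size and left-out arrays and rats.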

Additional observations from a re-analysis of the deposited data

Results flagged for a closer look

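The junction effect differed between the muscles by the interaction term itself for 27 genes in the positive and 69 in the negative direction. Among 59 named genes screened, 4 had 1 rat far from the other 3 in its difference of differences, where chance flags about 5% of such sets. Kcnip3 had 2.96 in rat 25 against 3.64 to 3.77 in the others. Tstd3 had 1.47 in rat 27 against 2.54 to 2.73. Myl4 had -1.25 in rat 15 against -0.05 to 0.11, and Rapsn 0.87 in rat 25, where the other 3 rats were below 0.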

How the results depend on the processing

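The 27 positive and 69 negative calls became 7 and 34 with 1 difference of differences per rat, 14 and 42 with arrays centred on a common median, where the median of all genes was 0.104 and not -0.0235, 8 and 38 with a pseudocount of 1, 62 and 156 with a pseudocount of 64, and 49 and 156 with an intensity trend and robust prior. The positive count was 17 with no replicate block and 15 without the 3 arrays of highest median intensity, an alternative chosen after seeing the data. Leaving out 1 array or 1 rat gave 2 to 26 positive and 22 to 73 negative genes. Fits without an array or a rat also hold fewer arrays, and the cause of these shifts was not tested. All 96 called genes kept their sign in the fits with these values, but the sign of Gpd1 reversed with the probe set of largest spread (0.0715). Some of these kept signs were fixed beforehand. The block and the prior leave the estimate unchanged, and 1 sign in all 4 rats holds when any rat is left out. In 2 called genes the sign differed on linear intensity, Chrna1 and Antxr2, and as deposited also in 2, Chrna1 and Myom2. Called in every fit that tested them were 12 genes, Cacna2d3, Calml4, Car3, Cblb, Ccnd2, Fez2, Gmfg, Map3k7cl, Myom2, Nrros, Prom2 and Tspan13. Summing the marker lists without their called genes was likewise chosen after seeing the data.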

Other observations

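Of the 96 called genes, 3 pairs lay within 100 kb of each other in the gene table of assembly GRCr8, and both members of each pair had the same sign. Besides Prom2 and Kcnip3, these were Car2 and Car3, 13.7 kb apart with no gene between and differences of -2.23 and -4.72, and Smim13 and Elovl2, 28.9 kb apart with 2 genes between and differences of 1.32 and 1.94. Car2, another carbonic anhydrase gene, was at 6.32, 6.37, 6.0 and 6.85 in EOM_fiber, 8.26, 8.14, 7.83 and 6.93 in EOM_synapse, 7.19, 5.94, 5.89 and 6.17 in TA_fiber and 10.11, 9.37, 9.73 and 10.55 in TA_synapse. It was thus higher at the junction in both muscles, unlike its neighbour Car3, and its call held in 4 of the 16 fits without 1 array, those without EOM_fiber 15, TA_fiber 15, EOM_synapse 25 or TA_synapse 25. The pairs were found after the values were seen, and no test of nearness was made.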
